A study of Homo sapiens with 6 samples.

Results

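The baseline transcriptome of H69 cells was described from the 3 libraries that received vehicle, out of 6 libraries in the series, with no contrast between treatments. H69 is a human bile duct epithelial (cholangiocyte) line immortalised with the SV40 large T antigen. The 3 vehicle libraries come from cells of the line at passages 30 to 32, kept in its own growth medium and collected with the arm that was treated for 16 h. The composition of the vehicle, and whether the replicates were separate cultures, are not given in the sources used here, so the spread between libraries may be technical. Protein-coding genes outside the alternative haplotype sequences were kept, which left 19892 genes, and they were ranked by the mean of the 3 deposited RPKM values (reads per kilobase of gene, scaled to the size of the library). With 1 group of libraries, levels are given as descriptions and no groups were tested against each other.

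Cholangiocytes modify bile by secreting bicarbonate, chloride and water, and carry primary cilia that sense flow. In the liver they are told from hepatocytes by keratins 7 and 19 and by the transcription factor SOX9. Stratified epithelia use other keratins and the regulator TP63, and mesenchymal cells use vimentin and fibrillar collagens. Hepatocytes, which share an embryonic origin with cholangiocytes, secrete albumin and other plasma proteins and depend on HNF4A.

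The deposited counts summed to between 39971568 and 54160521 reads per library, and 95.1 ± 0.0531% of them (mean ± SD, n = 3, as for all errors below) lay on protein-coding genes. One read on a gene of 1 kb was worth 0.00776 to 0.0105 RPKM. Replicate 1 stood apart from replicates 2 and 3. A chi-square of the counts per degree of freedom was taken over genes of all classes. It was 23.5 between replicates 1 and 2, 26.0 between replicates 1 and 3, and 2.89 between replicates 2 and 3. This statistic sets libraries against counting noise alone, which separate libraries usually exceed, and is given only to set the pairs side by side. Values are given for each library where a gene turned on replicate 1.

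A gene was called present when it reached 1 RPKM in every vehicle library. By that rule 9881 genes, 49.7% of those measured, were present. A further 434 reached 1 RPKM in some library but not in every one, and 3210 stayed below 1 RPKM while reaching 0.1 in at least 1 library. Another 6367 genes (32.0%) lay under 0.1 RPKM in every library, and 2330 of these had no read at all. The median over all genes was 1.07 RPKM, and over the present genes 4.24 RPKM. Few genes were very abundant, with 2039 at a mean of at least 10 RPKM, 79 at 100 or more and 7 at 1000 or more.

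**Figure D1:**
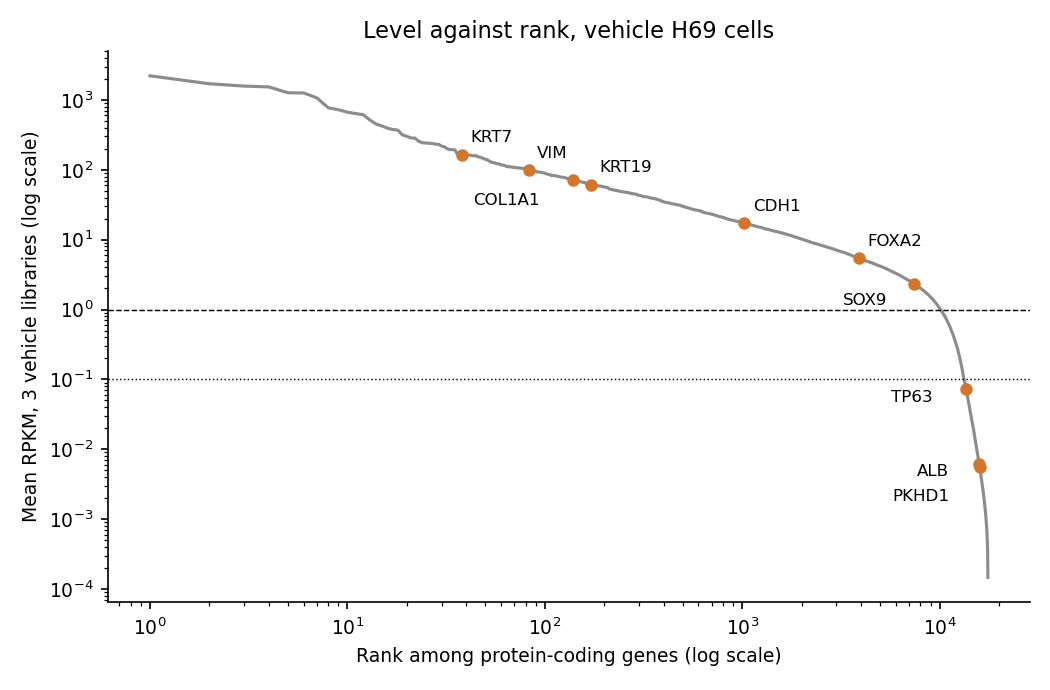
Mean RPKM of the 3 vehicle libraries (vertical, log scale) against rank (horizontal, log scale) for protein-coding genes with a read, with 10 genes marked. The dashed line is 1 RPKM and the dotted line 0.1 RPKM. KRT7 sits at rank 38, SOX9 is close above the dashed line, and TP63, ALB and PKHD1 lie under the dotted line.

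The 7 genes at 1000 RPKM or more were all encoded by the mitochondrial genome. MT-CO2, a subunit of cytochrome c oxidase, stood at 2030, 2270.2 and 2331 RPKM in replicates 1, 2 and 3. It was followed by the oxidase subunit MT-CO1 at a mean of 1700.1 ± 165 RPKM, and by the ATP synthase subunits MT-ATP8 (1577 ± 15.4) and MT-ATP6 (1533 ± 88.5). MT-ATP8 shares 22.2% of its exonic bases with other rows, MT-ATP6 among them. MT-ND4, of complex I, reached 1265 ± 132 RPKM. All 13 mitochondrially encoded proteins were among the 100 highest genes. MT-CO2, MT-CO1, MT-ATP6 and MT-ND4 were lowest in replicate 1.

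Among nuclear genes the actin system led. TMSB10, a thymosin that binds actin monomers, was highest at 723, 715 and 733 RPKM. The cytoplasmic actins ACTB (667 ± 28.6) and ACTG1 (637 ± 39.2) came next, and the related thymosin TMSB4X stood at 315 ± 29.97 RPKM. The glycolytic enzyme GAPDH reached 449.9 ± 32.2 RPKM, and the ferritin chains FTL and FTH1, which store iron, reached 422 ± 45.8 and 232 ± 2.22. FTH1 shares 62.4% of its exonic bases with other rows, among them BEST1 with 46827 reads on average against 53836, so its level is uncertain. The translation factors EEF1A1 and EEF2 reached 377 ± 28.2 and 301 ± 27.1 RPKM, the calcium-binding S100A6 284 ± 31.2, the tubulin TUBB 254 ± 11.5 and the galectin LGALS1 194 ± 28.0. LGALS1 was lowest in replicate 1 at 165 RPKM, against 198 and 220.5 in replicates 2 and 3.

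Ribosomal protein genes supplied 27 of the 100 highest genes, led by RPS12 (285 ± 10.2 RPKM), RPS18, RPL7A, RPL13A and RPL8. Their reads made up 4.22 ± 0.172% of all counts. Keratins supplied 4 of the 100, tubulins and actins 5, chaperones 4 and elongation factors 3. Another 5 were read-through or clone-named genes, among them RPS10-NUDT3 and RP11-1035H13.3 of the 20 highest nuclear genes. RPS10-NUDT3 overlaps RPS10, and the 2 rows held nearly equal reads, so their levels cannot be told apart. RP11-1035H13.3 shares 100% of its exonic bases with other rows, ARL6IP1 and RPS15A among them, so its level is uncertain too.

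The 10 highest genes held 12.2 ± 0.562% of the summed RPKM, the 100 highest 27.1 ± 1.05% and the 1000 highest 55.9 ± 0.681%. Without the mitochondrially encoded genes, the 100 highest held 17.5 ± 0.544%.

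The markers that name the line gave unequal levels. KRT7, the type II keratin of bile duct epithelium (hg38, chromosome 12, 52232520 to 52252186), stood at 186, 154 and 154 RPKM and ranked 38th. KRT19, its type I counterpart in bile ducts (chromosome 17, 41523617 to 41528308), stood at 81.7, 49.9 and 51.9 RPKM and ranked 172nd. KRT19 was higher in replicate 1 than in both other libraries, and KRT7 was 2.78 ± 0.441 times as abundant per length. CDH1, which encodes the epithelial cadherin, gave 21.7, 15.5 and 14.6 RPKM at rank 1027. FOXA2, a forkhead factor of endoderm, gave 5.07, 5.45 and 5.83 RPKM at rank 3911. SOX9 was present but low, at 1.70, 2.70 and 2.59 RPKM, and ranked 7411th. All 5 markers were thus present, across a range of levels from KRT7 to SOX9 that does not overlap between neighbours in this order.

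Of the 20 biliary keratins and surface genes, 11 were present (55%), near the 49.7% over all genes. The list median was 2.50 RPKM, against 1.07 over all genes. The simple-epithelial partners KRT18 (92.3, 115 and 113 RPKM) and KRT8 (105, 106 and 108 RPKM) overlapped each other in range, and KRT8 stood at 1.005 ± 0.113 times KRT18. The 2 genes overlap, over 16.3% of the exonic bases of KRT18. CD24, a surface glycoprotein of progenitor and biliary cells, gave 42.2, 27.2 and 26.5 RPKM. The RNA-binding protein BICC1 followed at 8.92 RPKM. The mucin MUC1 was 5.28 RPKM in replicate 1 and 2.47 and 2.38 in the others, and the adhesion molecule EPCAM stood at 2.77, 2.2 and 2.08. At the other end, 32.0% of all genes were under 0.1 RPKM in every library, and so were 6 of the 20 members here. They included PROM1 (0.0373 RPKM), SPP1, the osteopontin gene, with 1, 4 and 0 reads, and FXYD2, a regulator of the sodium pump, at 0.00159 RPKM.

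The 20 biliary and epithelial transcription factors had 8 present members (40%), against 49.7% of all genes. The list median was 0.700 RPKM, against 1.07 over all genes. YAP1, the effector of Hippo signalling, led at 15.9, 13.3 and 13.7 RPKM, followed by its DNA-binding partner TEAD1 (7.79 ± 0.413), SOX4 (6.55 ± 0.131) and TEAD4. PROX1, a liver factor, stood at 0.00305 RPKM. ELF3, an epithelial ETS factor, was 3.48 RPKM in replicate 1 and 1.34 and 1.39 in replicates 2 and 3. The biliary factor ONECUT1 lay at 0.0572 RPKM.

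Of 25 genes of biliary secretion and bile acid transport 10 were present and 10 lay under 0.1 RPKM in every library. These shares, 40% each, compare with 49.7% and 32.0% over all genes. The bicarbonate exchanger SLC4A2 was at 21.1, 20.7 and 21.3 RPKM, the calcium release channel ITPR3 at 13.7 ± 0.395, and the export pumps ABCC1 and ABCC3 at 7.55 and 6.55. The list's median was 0.259 RPKM, against 1.07 over all genes. CFTR, the chloride channel through which secretin acts, had no read in any library, which allows at most 0.00103 RPKM at 3 reads over the group. SLC10A2, the apical bile acid transporter, ABCB1, an export pump, and NR1H4, the bile acid receptor, also had no read. The secretin receptor SCTR had 0, 2 and 0 reads and the chloride channel ANO1 0, 1 and 4. These limits cover counting error only.

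Of 18 cilium and polycystin genes 10 were present (55.6%), and the median was 1.08 RPKM, both near the 49.7% and 1.07 RPKM over all genes. The count depended on the minimum. It was 16 at 0.5 RPKM and 3 at 2 RPKM, where 11272 and 7749 of all 19892 genes were present. TULP3, a trafficking adaptor of the cilium, led at 6.90, 8.21 and 8.23 RPKM, followed by IFT20 (3.54 ± 0.121) and PKD2 (2.82 ± 0.0283). IFT20 shares 11.2% of its exonic bases with other rows, among them TMEM97 with 11838 reads on average against 1304, so its level is uncertain. PKD2 and PKD1 encode the polycystins, and PKD2 stood at 1.68 ± 0.134 times PKD1. PKHD1, which encodes fibrocystin, had 13, 11 and 8 reads, or 0.00553 RPKM, and the calcium channel TRPV4 0.147 RPKM.

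**Figure D2:**
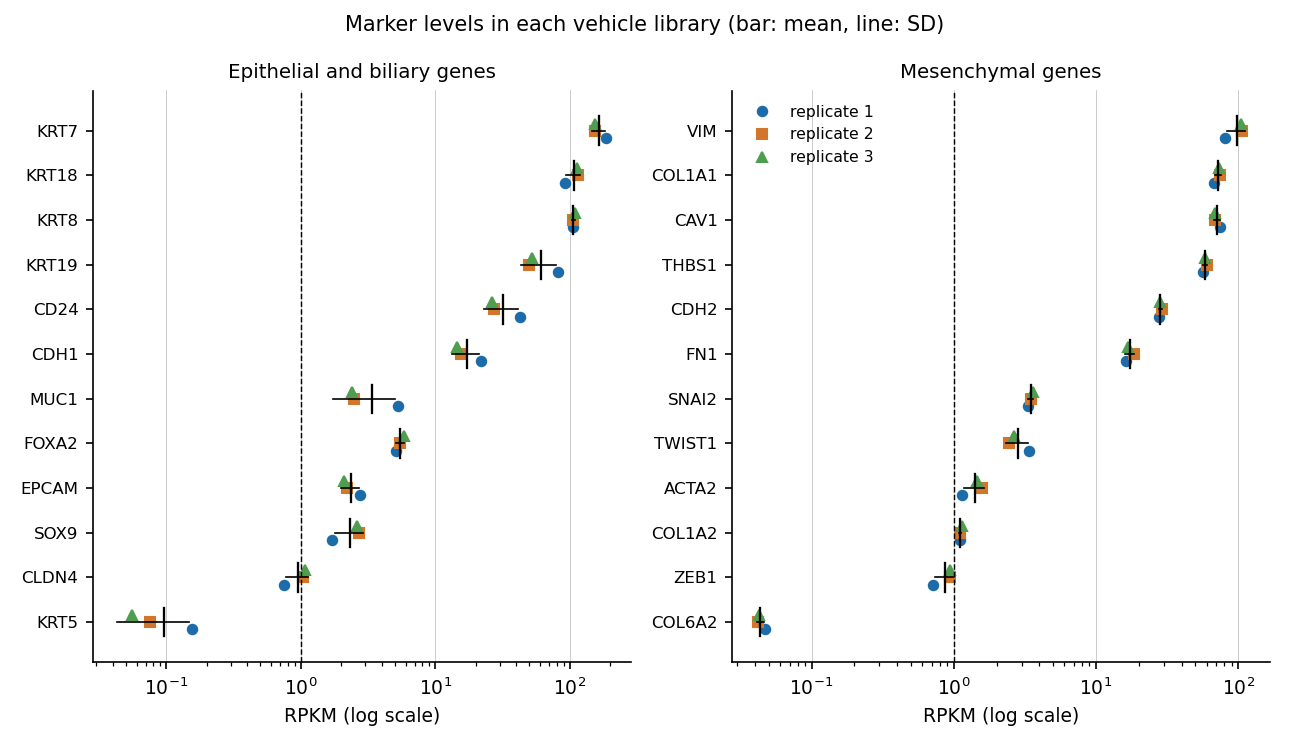
RPKM (horizontal, log scale) of 12 epithelial and biliary genes and 12 mesenchymal genes in each of the 3 vehicle libraries; the vertical bar is the mean, the horizontal line the SD, and the dashed line 1 RPKM. KRT19, CD24 and MUC1 show replicate 1 to the right of the other libraries, and COL1A2 and COL6A2 lie far below COL1A1.

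Hepatocyte genes were largely at background. Of 22 secreted plasma proteins 4 were present (18.2%), against 49.7% of all genes. In every library 14 lay under 0.1 RPKM, as did 32.0% of all genes. The list's median was 0.0148 RPKM. C3, the central complement component, stood at 28.5, 20.7 and 21.2 RPKM, the protease inhibitor SERPINA1 at 5.43 ± 0.136 and VTN, the adhesive plasma protein vitronectin, at 4.92 ± 0.362. FGG, the gamma chain of fibrinogen, was 19.3 RPKM in replicate 1 and 7.39 and 6.81 in replicates 2 and 3. The other 2 fibrinogen chains were far lower, and FGG stood at 32.7 ± 7.78 times FGA and 26.5 ± 4.93 times FGB. ALB, which encodes albumin, had 2, 1 and 4 reads. TTR, AFP, APOA2 and F9 had no read, with limits of 0.00404, 0.00269, 0.00927 and 0.00315 RPKM.

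Of 24 hepatocyte metabolism and transport genes 2 were present (8.33%), against 49.7% of all genes. These were GLUL, the glutamine synthetase, at 3.41, 4.07 and 3.999 RPKM and CPS1, the entry enzyme of the urea cycle, at 1.21, 1.29 and 1.30. HPD, of tyrosine breakdown, stood at 0.195 RPKM and the receptor subunit ASGR1 at 0.0660. The other members include CYP3A4 (0.0202 RPKM) and the uptake transporter SLCO1B1 and the enzymes OTC and G6PC1, each with no read. None of 11 hepatocyte transcription factors was present. NR1I3 was highest at 0.643 ± 0.0497 RPKM, although 20% of its exonic bases are shared with TOMM40L, which has more reads. HNF4A, the main factor of the hepatocyte, had 41, 52 and 50 reads, or 0.0754 RPKM.

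Keratin genes gave a mixed picture for stratified epithelium. Of 16 stratified and squamous keratins 4 were present (25%), against 49.7% of all genes. KRT81, a hair keratin, stood at 98.2, 96.9 and 95.3 RPKM, at rank 86 and in the range of KRT18. KRT80 followed at 28.5 ± 4.94 RPKM, KRT10 at 3.58 ± 0.177 and KRT17 at 3.03 ± 0.107. KRT81 has closely similar neighbours among the hair keratins, and how multi-mapped reads were treated is not given, so its level is uncertain. KRT5 and KRT14, the pair of basal layers, stood at 0.0951 and 0.0296 RPKM, and KRT1 and KRT2 of the upper layers had no read. KRT6A, an inducible keratin, was 2.01 RPKM in replicate 1 and 0.846 and 0.774 in the others.

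Keratin filaments pair type I with type II chains. The 28 measured type I keratins summed to 175 ± 5.31 RPKM and the 26 type II keratins to 400 ± 14.4, and 4 genes of each type were present. KRT7, KRT8 and KRT81 made up most of the type II sum.

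The squamous programme was otherwise low. Of 20 basal regulators and desmosome genes 5 were present (25%), against 49.7% of all genes. These were SFN (16.4 ± 0.756 RPKM), a 14-3-3 protein of epithelia, the basal zinc-finger factor BNC1 (6.31 ± 0.825), S100A2, PERP and the Notch ligand JAG2. TP63, the master regulator of stratified epithelium, had 22, 78 and 91 reads, or 0.0309, 0.0813 and 0.104 RPKM, and the desmosomal cadherin DSG1 had none. Of 25 cornified envelope genes 2 were present (8%), S100A9 at 2.56, 1.96 and 1.97 RPKM and the crosslinking enzyme TGM1 at 1.36, 1.03 and 1.14. Loricrin and the 5 SPRR genes on the list had no read. By contrast, 10 of 11 genes of the hemidesmosome, epithelial laminins and laminin-binding integrins were present (90.9%), with a median of 12.1 RPKM. The integrin chain ITGA3 led at 29.03, 38.2 and 37.5 RPKM, the tetraspanin CD151 followed at 21.3 ± 1.02, and the linker PLEC stood at 18.0 ± 1.31. COL17A1, the transmembrane collagen of hemidesmosomes, was the exception at 0.161 RPKM.

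Junction genes of simple epithelia were mostly present, 22 of 32 (68.75%, against 49.7% of all genes), with a median of 3.001 RPKM. The catenins CTNNB1 and CTNNA1, which link cadherins to actin, reached 23.8 ± 1.02 and 20.1 ± 1.05 RPKM, and the desmosomal cadherin DSG2 17.5 ± 1.13. JUP, which encodes plakoglobin, was 7.87 RPKM in replicate 1 and 16.9 and 17.5 in replicates 2 and 3. The desmocollin DSC2 was at 0.0391 RPKM, and the claudin CLDN2 at 0.0478. CLDN1 stood at 12.8 ± 0.147 RPKM.

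Mesenchymal genes were present beside the epithelial ones. Of 23 cytoskeletal and surface genes 16 were present (69.6%), with a median of 5.77 RPKM, and of 22 matrix genes 15 (68.2%), with a median of 5.53. Over all genes 49.7% were present, with a median of 1.07 RPKM. VIM, the mesenchymal intermediate filament (chromosome 10), gave 80.8, 107 and 105 RPKM at rank 83, or 0.912 ± 0.0323 times KRT18. Other rows, VIM-AS1 among them, share 24.4% of the exonic bases of VIM, and strand cannot be told apart in these counts. CDH2, the neural cadherin, gave 27.8, 29.05 and 28.3 RPKM and exceeded CDH1 in every library, by 1.28, 1.88 and 1.94 times. The series holds no bile duct tissue to set beside this, so whether it is a mesenchymal trait was not tested. CAV1, of caveolae, stood at 70.9 ± 3.32 RPKM and the receptor kinase AXL at 59.3 ± 9.56. Of the muscle genes, DES, which encodes desmin, had 1, 2 and 1 reads, and the smooth muscle actin ACTA2 stood at 1.15, 1.59 and 1.46 RPKM. ACTA2 shares 30.1% of its exonic bases with other rows, among them FAS with 1181 reads on average against 491, so its level is uncertain.

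Collagen chains that assemble together stood at unequal levels in some cases and at similar levels in another. COL1A1, the main chain of type I collagen, gave 67.9, 74.8 and 73.3 RPKM, while COL1A2, which completes the trimer, gave 1.11, 1.098 and 1.14. The ratio was 64.6 ± 3.42. COL6A1 stood at 4.80, 6.31 and 6.59 RPKM, 136 ± 28.99 times COL6A2 and 136 ± 14.3 times COL6A3. For type V collagen, COL5A1 gave 5.85, 6.37 and 5.99 RPKM and COL5A2 9.06, 8.76 and 8.71, a ratio of 0.687 ± 0.0407. COL3A1 had 0, 1 and 3 reads. These pairs were chosen after their values were seen. THBS1, a matricellular protein, stood at 58.5 ± 1.99 RPKM, the metalloproteinase inhibitor TIMP1 at 27.0 ± 4.85 and fibronectin FN1 at 17.3 ± 1.18.

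Of 14 mesenchymal transcription factors 4 were present (28.6%), against 49.7% of all genes. FOXC2 (4.26 ± 0.180 RPKM), SNAI2 (3.48 ± 0.126), TWIST1 (3.36, 2.45 and 2.66) and TWIST2 (1.14 ± 0.0688) made up the 4. SNAI2 stood at 7.46 ± 0.931 times SNAI1, which was under 1 RPKM, as were ZEB1 and ZEB2 in every library. FOXF1, HAND2 and MEOX2 had no read.

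**Figure D3:**
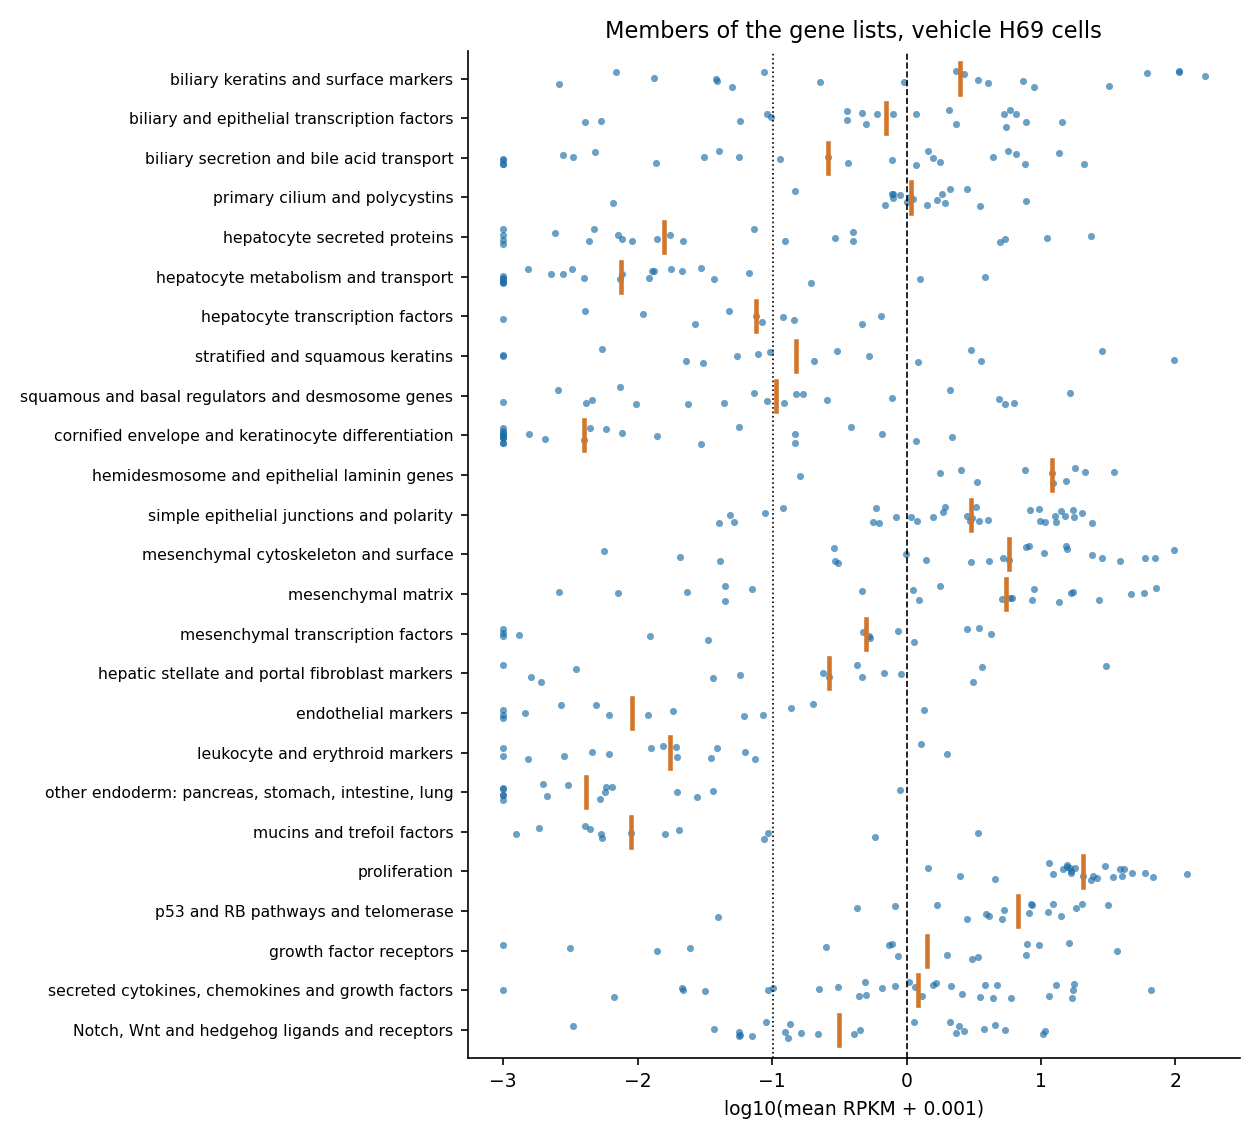
Mean RPKM of every measured member of 25 gene lists, as log10(RPKM + 0.001), with 1 point per gene and an orange bar at the list's median; the dashed line is 1 RPKM and the dotted line 0.1 RPKM, and vertical jitter has no meaning. The proliferation list lies wholly right of the dashed line, and the medians of the hepatocyte, cornified envelope, endothelial and leukocyte lists lie left of the dotted line.

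Few markers of other cells that a bile duct sample could hold were present. Of 15 stellate and portal fibroblast genes 3 were present (20%), against 49.7% of all genes. These were the fibulins FBLN1 (34.4, 28.3 and 28.6 RPKM) and FBLN2 (3.12 ± 0.0905) and the globin CYGB (3.63 ± 0.629). HGF, made by stellate cells, stood at 0.000609 RPKM and GPC3 had no read. Among 14 endothelial genes the receptor KDR alone (7.14%) was present at 1.56, 1.28 and 1.21 RPKM, while the junction gene CDH5 stood at 0.00389. Among 16 leukocyte and erythroid genes CD68 and CD14 (12.5%) were present. CD68 at 1.80, 2.06 and 2.11 RPKM shares 85.8% of its exonic bases with other rows, and its reads cannot be assigned with certainty. PTPRC, the common leukocyte antigen, had 0, 4 and 7 reads. None of 16 genes of other endodermal organs was present, and VIL1, an actin bundler of brush borders, was the highest at 0.897 ± 0.0426 RPKM, but shares 44.0% of its exonic bases with USP37, which has more reads. Of 13 measured mucins and trefoil factors 1 was present (7.69%), the gel-forming mucin MUC6, at 2.24, 4.53 and 3.44 RPKM.

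All 25 proliferation genes were present, against 49.7% of all genes, with a median of 20.5 RPKM. PCNA, the replication clamp, stood at 124, 115 and 124 RPKM, TOP2A, which untangles DNA, at 68.4 ± 0.654, and the mitotic cyclin CCNB1 at 59.8 ± 0.578. The ubiquitin enzyme UBE2C stood at 47.5 ± 1.73, and the lowest were E2F2 at 1.46 ± 0.132 and CCNE1 at 2.49 ± 0.141. CCND1, the G1 cyclin, was 11.04 RPKM in replicate 1 and 25.4 and 25.01 in replicates 2 and 3, while TOP2A and CCNB1 differed little between libraries. In the p53 and RB lists 15 of 18 genes were present (83.3%). The cell cycle inhibitors CDKN1A (31.4 ± 4.06 RPKM), CDKN1B (20.03 ± 1.302) and CDKN2A (21.2, 17.5 and 15.7) led, and BAX stood at 14.0 ± 1.15. TERT, the telomerase catalytic subunit, had 16, 27 and 19 reads, or 0.0389 RPKM, against 8.19 ± 0.0345 for the telomerase cofactor DKC1.

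Of 16 growth factor receptors 8 were present (50%), near the 49.7% over all genes. TGFBR2, the type II receptor for TGF-beta, stood at 31.6, 39.0 and 39.0 RPKM, followed by EPHA2 (9.10, 19.6 and 19.9), EGFR (9.67 ± 0.484) and ERBB2 (7.89 ± 0.605). FGFR2 stood at 0.00216 RPKM and NTRK2 had no read. Of 32 secreted cytokines and growth factors 15 were present (46.9%), also near the share over all genes. The highest were the matricellular factor CCN1 (54.2, 71.3 and 71.9 RPKM), CSF1, CCN2 and IL18. IL11 was 0.514 RPKM in replicate 1 and 2.31 and 2.10 in replicates 2 and 3. CXCL12 had no read, and CCL2 stood at 0.00570 RPKM. Of 24 Notch, Wnt and hedgehog genes 10 were present (41.7%), against 49.7% of all genes. The highest were the receptor NOTCH2 at 10.8 ± 0.622 RPKM, the co-receptor LRP5 (6.52, 12.2 and 12.6), the ligand JAG1 (3.22, 6.52 and 6.53) and FZD6. WNT7A stood at 0.00231 RPKM.

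Spread between libraries fell with level up to 100 RPKM. The median coefficient of variation was 10.5% for genes with a mean of 0.1 to 1 RPKM, 4.96% from 1 to 10, 4.04% from 10 to 100 and 5.88% above. Pearson correlations of log2(RPKM + 1) across genes, which are not independent replicates, were 0.996 for replicates 1 and 2, 0.995 for replicates 1 and 3 and 0.9995 for replicates 2 and 3. The common biological coefficient of variation in edgeR was fitted over genes of all classes, not the protein-coding genes alone (20290 genes for all 3 libraries). It was 10.8% for all 3 libraries and 2.77% without replicate 1.

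**Figure D4:**
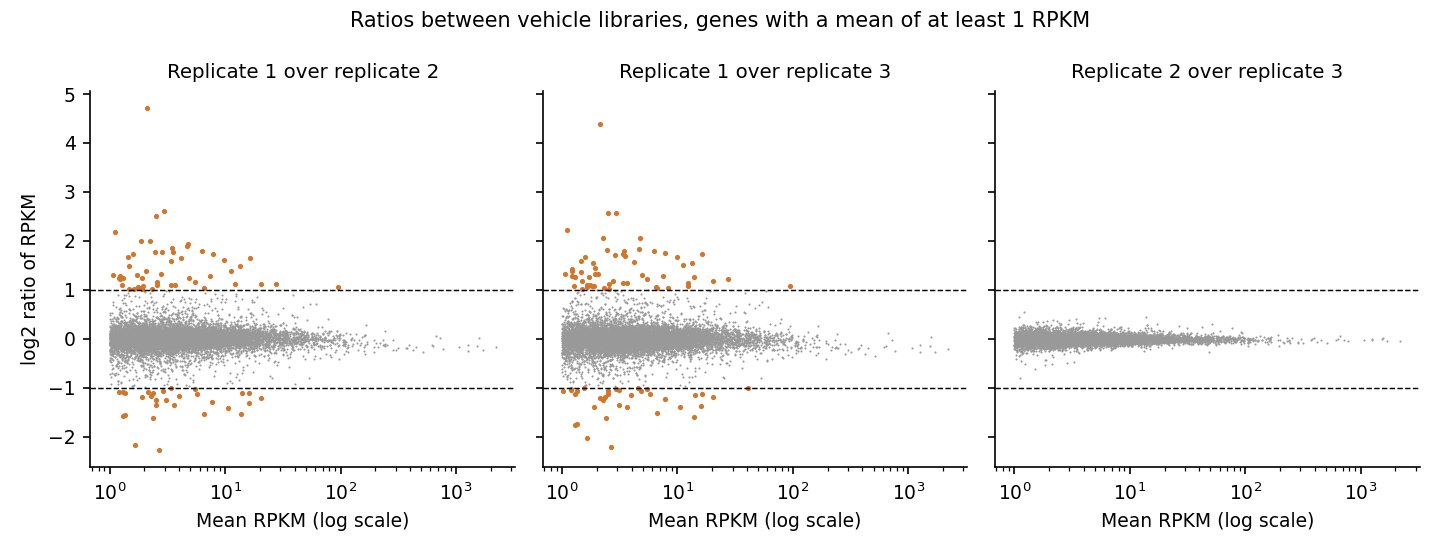
log2 ratio of RPKM for each pair of vehicle libraries (vertical) against mean RPKM (horizontal, log scale) for genes with a mean of at least 1 RPKM; dashed lines mark 2-fold and orange points lie beyond them. Both pairs with replicate 1 have orange points, and replicate 2 over replicate 3 has none.

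Among the 10115 genes with a mean of at least 1 RPKM, 93 (0.919%) had a highest library at least 2-fold above the lowest on TMM-scaled counts (CPM). Replicate 1 was the highest library for 58 of them and the lowest for 35, so it was an extreme in all 93. Replicates 2 and 3 differed by 2-fold in 0 genes, replicates 1 and 2 in 81, and replicates 1 and 3 in 91. The lists held 209 genes with such a mean, and 11 of these passed 2-fold: MUC1, ELF3, FGG, KRT6A, JUP, NT5E, MUC6, CCND1, EPHA2, IL11 and JAG1. MUC1, ELF3, FGG and KRT6A were highest in replicate 1, and the other 7 were lowest there.

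**Figure D5:**
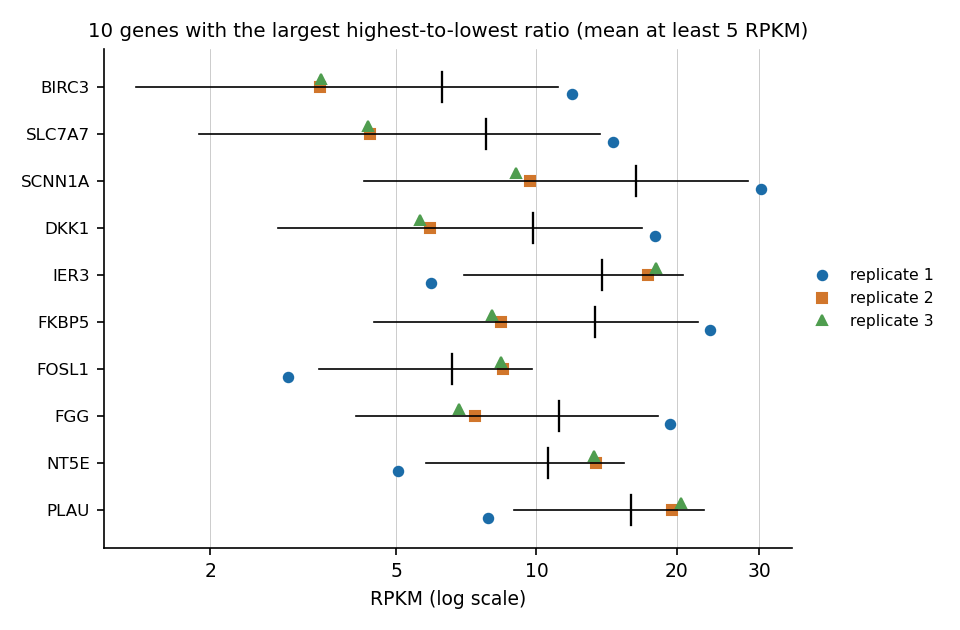
RPKM in each vehicle library (horizontal, log scale) of the 10 genes with the largest ratio of highest to lowest library among those with a mean of at least 5 RPKM; the bar is the mean and the line the SD. In every one of the 10 genes replicate 1 lies apart from replicates 2 and 3, which lie close together.

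Of the 10 genes with the largest ratio at a mean of at least 5 RPKM, 6 were highest in replicate 1. BIRC3, an inhibitor of apoptosis, was at 11.9, 3.44 and 3.45 RPKM, and the amino acid transporter SLC7A7 at 14.6, 4.41 and 4.35. SCNN1A, a subunit of the epithelial sodium channel, was at 30.3, 9.71 and 9.06 RPKM, the Wnt antagonist DKK1 at 17.9, 5.90 and 5.62, and the immunophilin FKBP5 at 23.5, 8.39 and 8.03. FGG, given above, is the other. The 4 that were lowest in replicate 1 were IER3, an immediate early gene (5.95, 17.4 and 18.1 RPKM), the AP-1 factor FOSL1 (2.93, 8.49 and 8.39), the ectonucleotidase NT5E (5.05, 13.4 and 13.3) and PLAU, the urokinase (7.89, 19.5 and 20.4). The mitochondrially encoded share of counts was 3.03, 3.403 and 3.501% and the ribosomal protein share 4.04, 4.26 and 4.37% in replicates 1, 2 and 3, and their part in these differences was not tested.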

How the data were processed

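RNA of H69 cells was sequenced in 6 libraries, of which the 3 vehicle libraries, grouped by the treatment in the labels, were used here. Per the submitters' processing notes the tools were bcl2fastq, STAR 2.6.1 and featureCounts of Subread, with build hg38. The annotation release, the strand setting and the handling of multi-mapped reads are not given in the sources used here. Per the file headers the authors deposited whole-number counts per gene and RPKM in 1 table of 64253 genes. From the values, the library size behind the deposited RPKM is larger than the summed counts, which are 42.0 ± 0.126% of it (mean ± SD, n = 3), and what else it holds is not given.

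RPKM was used as deposited, with a minimum of 1 for present and 0.1 for background. Counts of genes of all classes were scaled by TMM in edgeR 4.0.16 (R 4.3.3, filterByExpr with its minimum count of 10). An intercept-only fit in edgeR on these genes gave the dispersion. Overlaps of exons came from GENCODE release 29, in which 93 of the 488 list genes share exonic bases with a gene of at least 10% of their reads. Tables were made in Python 3.11.15 with pandas 2.3.3. The dispersion and ratio steps were tested on simulated data. A limit for a gene with no read is 3 reads over the libraries together.

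The 25 gene lists hold 489 genes, of which 488 were measured, since MUC2 is not a protein-coding row. The members and lists were chosen with earlier results of these data known. Named genes are the 20 nuclear and 5 mitochondrial genes of highest mean, the 5 markers, in each list the 4 highest and 2 lowest members, the 10 largest library ratios at a mean of at least 5 RPKM, and list members with a ratio of at least 2; others are examples. Some genes that this rule names are not reported here.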

Additional observations from a re-analysis of the deposited data

How the results depend on the processing

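No paired analysis was possible because a single group of libraries was described and nothing was tested between groups. The count of present genes ran from 7749 (minimum of 2 RPKM) to 13044 (TPM), and leaving out a library gave 9912 to 10039. The present list members ran from 165 to 284, and were 202 to 207 with a library left out. Of the counts for single lists, 39 of 225 moved, by over 1.5 times or to or from 0. Of these, 25 came with TPM or CPM in place of RPKM, where hepatocyte transcription factors went from 0 present to 3. Ranking on CPM with no length scaling kept 57 of the 100 highest genes, and the other alternatives kept 94 to 99. KRT7 then ranked 23rd and KRT19 399th. The 100 highest genes held 17.5% of summed RPKM without the mitochondrially encoded genes. The biological coefficient of variation was 2.77 to 13.7% with a library left out. The genes at 2-fold numbered 28 at a mean of at least 5 RPKM, 1218 at 10 counts in all, and 0 to 91 with a library left out, 0 being without replicate 1. The cause of replicate 1's distance was not tested. Depth bears most on short genes, where 1 read on 1 kb is worth up to 0.0105 RPKM, while long genes under 0.1 RPKM can hold many reads, as ONECUT2 with 152, 209 and 177.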

Other observations

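Outside the protein-coding class, antisense rows made up 2.05 ± 0.00779% of counts and long intergenic rows 0.486 ± 0.00855%. Of 7661 long intergenic rows 180 reached 1 RPKM in every vehicle library. LINC00657, also known as NORAD, stood at 26.4, 26.1 and 26.0 RPKM, and the nuclear RNA NEAT1 at 9.64 ± 0.688 RPKM. MALAT1, another nuclear RNA, has 2 rows in the table. The long intergenic row (ENSG00000251562) stood at 24.7, 21.7 and 20.3 RPKM, and a row called protein-coding (ENSG00000279576) at 29.4, 25.01 and 24.2 RPKM. Antisense rows can hold reads of the gene they overlap, and strand cannot be told apart in these counts.

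Outside the rule for named genes, and chosen after its values were seen, SCNN1G had the largest ratio of highest to lowest library among genes with a mean of at least 1 RPKM. This gene encodes a subunit of the epithelial sodium channel, as SCNN1A does, and had 5.84 RPKM in replicate 1 and 0.221 in replicate 2. The ratio of highest to lowest library on TMM-scaled counts (CPM) was 26.3 for SCNN1G and 3.36 for SCNN1A.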
